A study of Mus musculus with 11 samples.

Results

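The caveolae coat genes of epididymal white adipose tissue (eWAT) are described here in wildtype (WT) mice and in mice that inherited an inactivated mesoderm specific transcript (Mest) allele from the father (pKO). The genes were taken by symbol from a list of caveolins, cavins and their partners. All 8 of the list, Cav1, Cav2, Cav3, Ptrf, Sdpr, Prkcdbp, Ehd2 and Pacsin2, were among the 15453 genes of each table. Ptrf, Sdpr and Prkcdbp are the older symbols of Cavin1, Cavin2 and Cavin3. In 7 of the 8 genes at least one genotype averaged 50 normalized tags or more, and only Cav3 fell short.

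The 11 male C57BL/6 mice were 6 WT and 5 pKO animals, labelled wildtype and Mest+/- paternal knockout, 16 weeks old and given a high fat diet from 8 weeks of age. The pKO mice carried a germline deletion of Mest exon 3 made by EIIa-cre recombination in early embryos and were bred from WT dams, so the deletion was present in every cell type and the maternal allele was intact. Because Mest is imprinted, the maternal allele gives little RNA. RNA was measured by SAGE (serial analysis of gene expression), where every transcript gives 1 short tag next to its last NlaIII site, so a value does not grow with transcript length. Values are tags divided by the size factor of the library, called normalized tags below.

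Caveolae are flask-shaped pits of the plasma membrane, and adipocytes and endothelial cells are among the cells richest in them. Caveolins form the scaffold embedded in the membrane, cavins assemble on its cytosolic face, and EHD2 and pacsins act where the pit joins the flat membrane. Loss of CAV1 or of cavin-1 in mice and people is known to cause loss of fat, and caveolae flatten when the adipocyte membrane is stretched.

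The WT libraries held 9659740 to 14825727 tags and the pKO libraries 11320342 to 14626803. The targeted gene was low in every pKO library and high in every WT library, since Mest ran from 20756 to 27897 normalized tags in WT mice and from 793 to 2275 in pKO mice. Its last NlaIII site lies downstream of the deleted exon. All 12 adipocyte markers averaged 50 normalized tags or more. Their summed level ran from 785028 to 1202710 normalized tags in WT and from 845459 to 1195600 in pKO mice, and most of it was Fabp4. The tissue is a mixture of cells, and fewer cells of a type cannot be told apart from less RNA per cell. No adipocyte marker and none of 8 further lists (endothelial, smooth muscle, skeletal and heart muscle, macrophage, fibroblast, mesothelial, lymphocyte, and epididymis and testis) had a gene called at an adjusted limma p at or below 0.1. At an unadjusted limma p at or below 0.05, 4.2% of all genes were higher in pKO mice and 5.35% lower. Higher by this rule were 1 of 12 adipocyte, 1 of 12 endothelial, 2 of 10 fibroblast and 3 of 8 mesothelial markers. Lower in pKO mice were 3 of 12 macrophage, 1 of 10 smooth muscle and 1 of 9 muscle markers. None of 8 lymphocyte and 3 epididymis and testis markers met the rule. The muscle marker was Myh2, a rare gene whose highest value was 10.7 normalized tags for WT and 3.43 for pKO. The summed mesothelial markers ran from 1188 to 1625 normalized tags in WT and from 1445 to 2903 in pKO mice, and the summed macrophage markers from 13386 to 18839 and from 11903 to 16499. The part of these cells in the results below was not tested.

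The tag expected from the last NlaIII site of each gene is shown first, because the levels below are counts of tags. The letters are the last NlaIII site and the 21 bases after it, in the longest RefSeq-matched GENCODE transcript of each gene, 5′ to 3′, with the NlaIII site in capitals.
Cav1: CATGtcctataaagatttcaaatct
Cav2: CATGaattattttgtctcaaaaact
Cav3: CATGctagggggagcaagcagtgac
Ptrf: CATGtattccctgcttcttagaatt
Sdpr: CATGcctgtgtgaaagaagattaaa
Prkcdbp: CATGtcaatgcataaaataaaaaaa
Ehd2: CATGattctgccccccatctgtctg
Pacsin2: CATGtctcagttcctgcaccagagg

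On GRCm38, which is the mm10 build of the submitters' notes, all 8 tags lay within the 3′ untranslated region of the last exon. The Cav1 tag was at chr6:17341275-17341299 on the forward strand and the Cav2 tag at chr6:17288865-17288889, also forward. The genes themselves are neighbours, with 17.22 kb between the end of Cav2 and the start of Cav1, and Mest lies 13.38 Mb further along the same chromosome. The Cav3 tag was at chr6:112472804-112472828. The cavin tags were at chr11:100957027-100957051 on the reverse strand for Ptrf, chr1:51302903-51302927 on the forward strand for Sdpr and chr7:105480096-105480120 on the reverse strand for Prkcdbp. The Ehd2 tag was at chr7:15947321-15947345 and the Pacsin2 tag at chr15:83375985-83376009, both on the reverse strand. Each tag occurred beside an NlaIII site in transcripts of 1 gene of the annotation. Pacsin2 had 3 RefSeq-matched transcripts with 2 different last tags, and Cav2 had 2 with 2, whereas both of the Cav1 transcripts ended in the same tag. Which tags the authors' software summed for a gene is not given in the sources used here.

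No caveolae gene was called different between genotypes. At an adjusted p at or below 0.1 (limma on log2(value + 1), adjusted over all genes) 0 of the 8 were called, where 0.0324% of all genes were called. At an unadjusted p at or below 0.05 the count was also 0 of 8, against 9.55% of all genes, and edgeR and DESeq2 on the recovered tags gave 0 of 8 at either threshold too, although DESeq2 gave Cav3 no adjusted p. Over all genes edgeR had 1374 of 15453 and DESeq2 1439 of 15427 at the unadjusted threshold, and 5 and 138 at the adjusted one. The log2 fold change, pKO minus WT, was above 0 in 5 of the 8 genes, beside 49.6% of all genes, and its median was 0.13 against -0.0025 over all genes. The adjusted p-values of the 8 genes ran from 0.58 to 0.94 in limma. The spread between mice was wide for Cav1, which differed 5.05-fold between its extreme mice, and from 1.51-fold to 1.98-fold for Cav2, Ptrf, Sdpr, Prkcdbp and Ehd2.

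**Figure D1:**
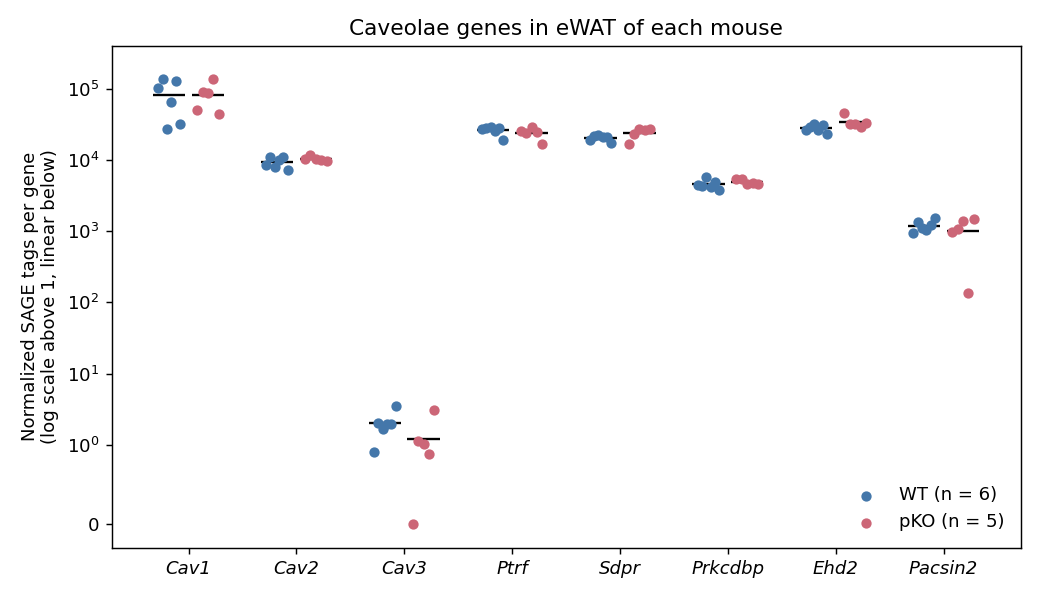
Normalized SAGE tags (vertical axis, log scale above 1 and linear below) of the 8 caveolae genes in each WT mouse (blue, n = 6) and each pKO mouse (red, n = 5), with a black line at each mean. Cav1 runs from 27627 to 139495, Pacsin2 of 1 pKO mouse lies at 135, Cav3 lies at or below 3.56, and the genotypes overlap for every gene.

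Cav1 encodes caveolin-1, the protein that caveolae cannot form without outside muscle. It was the 7th most abundant of the 15453 genes by mean. In WT mice its lowest, median and highest values were 27627, 83574 and 138610 normalized tags. The 5 pKO mice had 51166, 91393, 87614, 139495 and 44519 normalized tags. High mice thus occurred in both genotypes, and the ranges overlapped from 44519 to 138610. The lowest and second lowest mice, at 27627 and 32002, were both WT. WT mice averaged 82245 ± 47987 (SD, n = 6) against 82837 ± 38005 (SD, n = 5) for pKO. The log2 fold change was 0.15 (standard error 0.45, 95% interval -0.81 to 1.11, adjusted p = 0.94, limma). A 2-fold rise lay inside this interval and a 2-fold fall outside it.

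Within genotypes the SD of Cav1 was 0.88 on the log2 scale, which placed it at rank 13 from the most variable among the 356 genes averaging 5000 normalized tags or more, whose median SD was 0.27. The lowest mouse, WT replicate 3, came from the deepest library, with 14825727 tags, and the second lowest, WT replicate 6 at 32002, from the shallowest, with 9659740. The summed adipocyte markers were 1045180 and 785028 in these mice, that is, inside the range of the other WT mice and at the lowest value of all 11. Fabp4 made up most of both sums, at 732226 and 471444. The value in WT replicate 6 was the lowest Fabp4 value of the 11 mice. Over all 11 mice this adipocyte sum differed 1.53-fold, and the sum of 12 endothelial markers, which ran from 6199 to 9156 in WT and from 6868 to 9995 in pKO mice, 1.61-fold. Whether cell makeup has a part in the spread of Cav1 was not tested.

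Cav2, caveolin-2, is the companion that needs CAV1 to leave the Golgi and reach the surface. Its lowest, median and highest WT values were 7270, 9331 and 11055 normalized tags. In the pKO mice they were 10199, 11928, 10334, 9983 and 9685. All pKO values lay above the WT median, and 1 lay above every WT mouse. WT mice averaged 9321 ± 1585 (SD, n = 6) against 10426 ± 875 (SD, n = 5) for pKO, and the log2 fold change was 0.18 (standard error 0.14, 95% interval -0.12 to 0.47, adjusted p = 0.71, limma). Its highest and lowest mice were only 1.64-fold apart.

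Cav3 is the caveolin of skeletal, heart and smooth muscle. It gave 1, 2, 2, 2, 2 and 3 tags in the 6 WT libraries and 0, 1, 1, 1 and 3 in the pKO libraries. The 0 in pKO replicate 1 allows a share of up to 2.05e-05% of its tags. No fold is given, since every library was at or under 3 tags, the number that a count of 0 allows. Of 13 skeletal and heart muscle markers 9 were in the tables, without Myh4, Myh6, Tnnt3 and Myog, and Ckm, Actc1, Myh1 and Myh2 were at 0 in some library. Their summed level ran from 1930 to 2427 normalized tags in WT and from 1904 to 3608 in pKO mice, and most of it was Myl1. Murc, the muscle cavin (Cavin4), was as rare, with 1 to 4 tags per WT library and 0 to 4 per pKO library. The muscle forms of the coat were thus at the limit of detection in both genotypes.

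Ptrf encodes cavin-1, without which caveolae are lost from fat. In WT mice the lowest, median and highest values were 19064, 27847 and 28804 normalized tags. Values of 25944, 23690, 28675, 24365 and 16765 were found in the pKO mice. A single mouse of each genotype, WT replicate 6 and pKO replicate 5, lay clearly below the rest. WT mice averaged 26307 ± 3684 (SD, n = 6) against 23888 ± 4420 (SD, n = 5) for pKO, so the log2 fold change was -0.15 (standard error 0.16, 95% interval -0.50 to 0.20, adjusted p = 0.81, limma). For Ptrf this difference was -0.026 once pKO replicate 5 was left out and -0.24 once WT replicate 6 was.

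Sdpr encodes cavin-2, which binds phosphatidylserine and bends the membrane. The lowest, median and highest WT values were 17292, 21200 and 22294 normalized tags. The pKO mice had 16637, 23433, 27004, 26064 and 27403, so that 4 of the 5 exceeded every WT mouse and the remaining one lay below them all. Means were 20494 ± 1843 (SD, n = 6) for WT against 24108 ± 4454 (SD, n = 5) for pKO, and the log2 fold change was 0.22 (standard error 0.15, 95% interval -0.10 to 0.54, adjusted p = 0.67, limma). Without pKO replicate 1, the lone low mouse, the log2 fold change of Sdpr was 0.34. The same mouse had the highest Ehd2 value of all.

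Prkcdbp encodes cavin-3, the cavin that binds protein kinase C delta. It had the narrowest range of the coat genes, 1.51-fold, with 3837 to 5798 normalized tags among WT and 4532 to 5481 among pKO mice. Its means were 4599 ± 694 (SD, n = 6) and 4949 ± 434 (SD, n = 5), giving a log2 fold change of 0.11 (standard error 0.13, 95% interval -0.16 to 0.39, adjusted p = 0.81, limma).

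Ehd2 encodes an ATPase that forms rings at the neck of the caveola and holds it at the surface. Its lowest, median and highest WT values were 22961, 28056 and 31642 normalized tags. Among pKO mice they were 45496, 31575, 32163, 28631 and 32762. Replicate 1 stood well above the others, and 3 pKO mice in all exceeded every WT mouse. Means were 28022 ± 3329 (SD, n = 6) for WT against 34125 ± 6552 (SD, n = 5) for pKO. The log2 fold change of 0.27 (standard error 0.15, 95% interval -0.04 to 0.59) had a limma p of 0.086, or 0.58 adjusted over all genes. A two-sided exact permutation test of Ehd2 alone, with every split of the mice, gave p = 0.045 before any adjustment. The same exact permutation test gave p = 0.78 for Cav1, 0.18 for Cav2, 0.15 for Cav3, 0.40 for Ptrf, 0.15 for Sdpr, 0.32 for Prkcdbp and 0.46 for Pacsin2, so 1 of 8 was below 0.05. Without pKO replicate 1 its log2 fold change was 0.17.

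Pacsin2 encodes an F-BAR protein that curves the membrane as caveolae form. Its lowest, median and highest WT values were 939, 1156 and 1520 normalized tags. The pKO mice had 983, 1069, 1394, 135 and 1483. Replicate 4 was thus far below all WT mice, while the other 4 pKO mice lay within the WT range. Pacsin2 had a log2 fold change of -0.59 (standard error 0.49, 95% interval -1.64 to 0.46, adjusted p = 0.74, limma), and without that mouse it was 0.04. The same mouse had the highest Cav1 value of the 11.

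**Figure D2:**
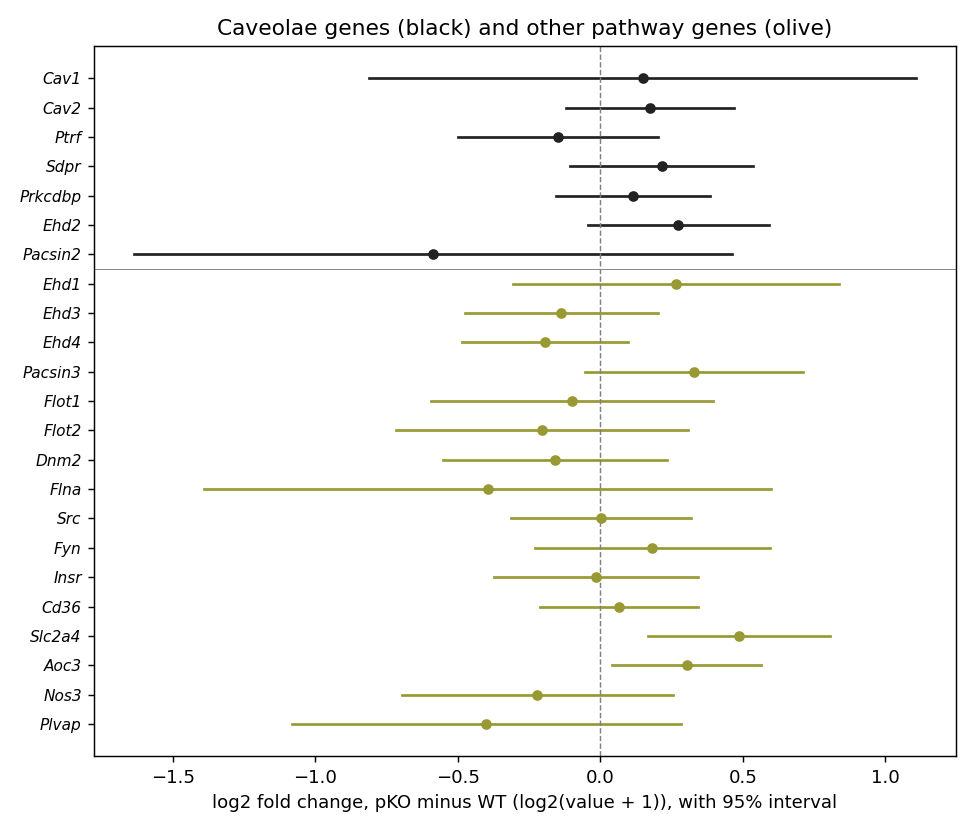
Log2 fold change, pKO minus WT on the log2(value + 1) scale (horizontal axis), with its 95% interval from limma, for the 7 caveolae genes (black) and 16 other pathway genes (olive) that averaged 50 normalized tags or more in either genotype. The intervals of all 7 caveolae genes include 0, and those of Slc2a4 and Aoc3 lie above it.

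By mean level over the 11 mice the order was Cav1, Ehd2, Ptrf, Sdpr, Cav2, Prkcdbp, Pacsin2 and Cav3. Cav1 exceeded Ehd2 in 10 of 11 mice, Ehd2 exceeded Ptrf in 10, and Ptrf exceeded Sdpr in 9, so the order within these neighbours was not the same in every mouse. From Sdpr downwards each gene exceeded the next in 11 of 11 mice. Together the 8 genes took 1.41% ± 0.40 (SD, n = 6) of all WT tags against 1.45% ± 0.29 (SD, n = 5) for pKO. Cav1 alone gave between 22.05% and 59.8% of the tags of the 8 genes in single mice. The sum of the 7 genes other than Cav1 spanned a 1.46-fold range, and averaged 89937 ± 9885 normalized tags (SD, n = 6) for WT against 98509 ± 5625 (SD, n = 5) for pKO.

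**Figure D3:**
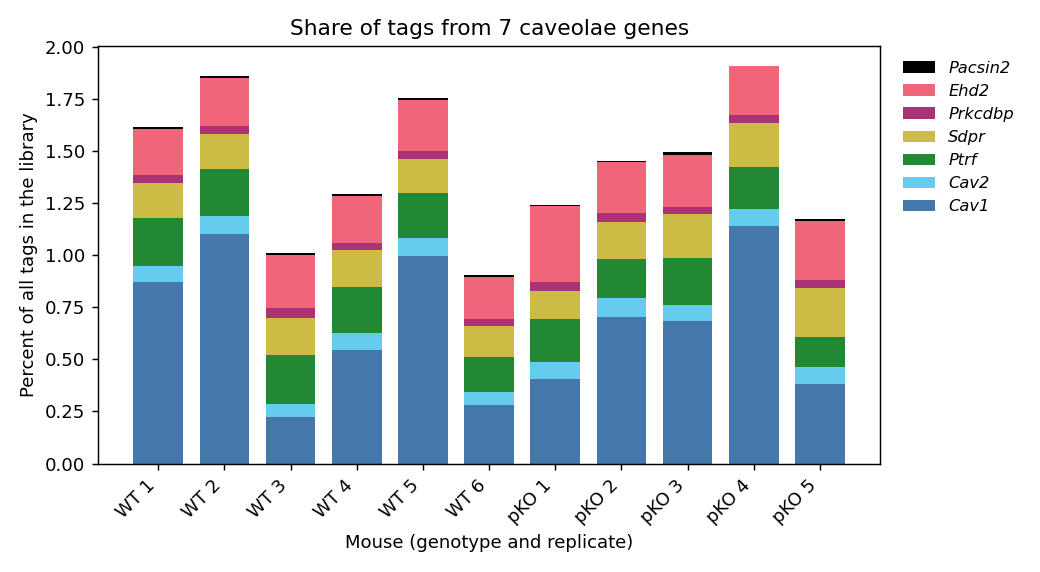
Percent of all tags in each library (vertical axis) that came from 7 caveolae genes, stacked by gene, for each of the 11 mice; Cav3 is too rare to draw. The Cav1 part (lowest block) runs from 0.223% in WT replicate 3 to 1.14% in pKO replicate 4, while the 7 genes other than Cav1 sum to between 71947 and 104740 normalized tags.

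As caveolins and cavins build 1 coat, ratios within a library, which no scaling can change, were compared. Ptrf per Cav1 ran from 0.204 to 1.04 in WT and from 0.175 to 0.507 in pKO mice, with a log2 difference, pKO minus WT, of -0.30 (exact permutation test, two-sided, p = 0.56) that was -0.0059 without WT replicate 3. Cav2 per Cav1 ran from 0.0785 to 0.292 in WT and from 0.0716 to 0.218 in pKO mice, with a log2 difference of 0.03 (exact permutation test, p = 0.95). For Sdpr per Cav1 the ranges were 0.156 to 0.807 and 0.187 to 0.616, and the log2 difference was 0.07 (exact permutation test, p = 0.90). No difference in these 3 ratios exceeded the spread within genotypes. Over the 11 mice the ratios varied 5.97-fold for Ptrf, 4.07-fold for Cav2 and 5.18-fold for Sdpr. The ratio of the cavins Sdpr and Ptrf, which was looked at after the values were seen, ran from 0.704 to 0.907 in WT mice and from 0.641 to 1.63 in pKO mice, and is given without a test.

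Covariation with Cav1 across the mice was examined on log2(value + 1) centred on the genotype means, over the 9905 other genes that averaged 50 or more in either genotype. After adjustment over these genes, 0 passed 0.1 in the exact permutation test within genotypes (0% called), and 612 or 6.18% had an unadjusted p at or below 0.05. Of the 6 caveolae genes tested, 1 was among those 612. That gene was Cav2, with a Pearson r of 0.71 (exact permutation p = 0.049, adjusted p = 0.80) and a Spearman rho of 0.71 (exact permutation p = 0.067) over 11 mice. Without WT replicates 3 and 6, the mice farthest from the Cav1 median, the r of Cav2 was 0.30. Leaving them out also narrowed the range of Cav1, which by itself can lower r. Whether the relation rests on those mice was therefore not decided. For Ptrf the r was 0.48 (exact permutation p = 0.15, adjusted p = 0.88) and the rho 0.15 (exact permutation p = 0.65). The r was 0.26 for Sdpr, -0.13 for Ehd2, -0.15 for Prkcdbp and -0.40 for Pacsin2, with exact permutation p-values of 0.40, 0.69, 0.73 and 0.11. A shared course of the cavins or Ehd2 with Cav1 was not detectable with these mice.

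**Figure D4:**
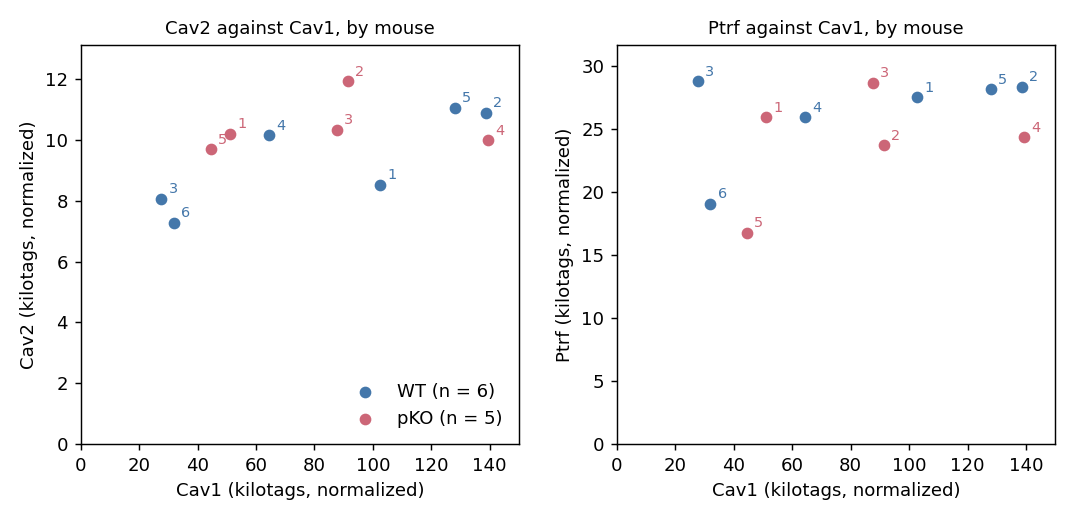
Normalized tags of Cav2 (left) and Ptrf (right) against Cav1, on axes in kilotags, for the 6 WT mice (blue) and 5 pKO mice (red), with the replicate number beside each point. All axes start at 0, and Cav1 spreads 5.05-fold, Cav2 only 1.64-fold and Ptrf 1.72-fold.

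The genes whose course over the 11 mice was most like that of Cav1, by centred Pearson r, included Rps4y2 at 0.94, Cry1 at 0.90, Trrap at 0.89 and Cct3 at 0.88. Their adjusted p-values ran from 0.31 to 0.66 (exact permutation test). Cry1 is a repressor of the circadian clock and Cct3 a subunit of the cytosolic chaperonin. Cct3 had 396 to 1123 normalized tags among WT mice and 568 to 1180 among pKO mice, with the lowest value again in WT replicate 3. The lowest mouse was another for the rest, WT replicate 6 for Cry1 and pKO replicate 5 for Rps4y2 and Trrap. No caveolae gene was among the 5 most alike, and Cav2, the nearest of them, was at rank 99 of 9905.

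Mest itself varied among the WT mice, so its relation to the coat genes was examined there. Over the 6 WT mice, 0 of 9905 genes passed an adjusted p of 0.1 for correlation with Mest (0% called), and 392 or 3.96% had an unadjusted exact permutation p at or below 0.05, among them 1 of the 7 caveolae genes tested, Prkcdbp. Its r was -0.82 (exact permutation p = 0.043, adjusted p = 0.98) and its rho -0.71 (exact permutation p = 0.14). Ehd2 had an r of -0.79 (exact permutation p = 0.058) and Sdpr one of -0.76 (exact permutation p = 0.056). Both, like Ptrf with an r of -0.62 (exact permutation p = 0.17), had a rho of -0.94 (exact permutation p = 0.017). Leaving out WT replicates 2 and 3, the farthest from the Mest median, kept the sign for these 4 genes, with r from -0.998 for Ehd2 to -0.86 for Ptrf over the remaining 4 mice. For Cav1 the r was 0.18 (exact permutation p = 0.77), and -0.88 without those mice. For Cav2 it was -0.10 (exact permutation p = 0.83), and -0.96 without them. Of the 7 genes only Pacsin2 then had an r above 0, at 0.41, so the low r over 4 mice was not particular to the 4 genes. Under total-count scaling of all 6 mice the r was -0.70 for Prkcdbp, -0.65 for Sdpr, -0.60 for Ptrf and -0.89 for Ehd2. No Pearson correlation of the 7 genes passed the adjustment, with adjusted p-values of 0.98 to 0.99, and the rho values were not adjusted. The share of 3.96% of all genes is for Pearson r. No such share was computed for rho, so the rho values have no background rate here.

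Of 19 other genes of the caveolae pathway 18 were in the tables, all but Ror1. None was called at an adjusted p at or below 0.1, and 2 of the 18 had an unadjusted limma p at or below 0.05, both higher in pKO mice, where 4.2% of all genes met that rule in that direction. In the other direction it was 0 of 18 genes against 5.35% of all genes. edgeR gave 3 of 18 at an unadjusted p at or below 0.05, with Pacsin1 added, beside 1374 of all 15453 genes. Pacsin1 had only 1 to 11 tags per library. DESeq2 gave the same 2 as limma, beside 1439 of 15427 genes. The median log2 fold change of the 18 genes was -0.06.

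Slc2a4, the insulin-dependent glucose transporter GLUT4, whose storage and uptake at the adipocyte surface have been tied to caveolae, was one of these. Its lowest, median and highest WT values were 519, 604 and 714 normalized tags. The pKO mice had 1225, 870, 809, 748 and 717, so the genotypes did not overlap, although the nearest mice were almost equal. Ranges did not overlap in 1.24% of all genes. The difference for Slc2a4 was 0.49 on the log2 scale (exact permutation p = 0.0043, limma standard error 0.15 and adjusted p = 0.37). Aoc3, an amine oxidase abundant on adipocytes and found in their caveolae, had 17727, 20229 and 21361 as lowest, median and highest WT values. The pKO mice had 27622, 20222, 25256, 26500 and 24021 normalized tags, and 4 of them exceeded every WT mouse. That difference was 0.30 on the log2 scale (exact permutation p = 0.013, limma standard error 0.12 and adjusted p = 0.47). The unadjusted limma p of Aoc3, 0.026, rose to 0.054 under total-count scaling and to between 0.0501 and 0.061 without WT replicate 1, WT replicate 2, pKO replicate 1 or pKO replicate 4, so it then missed 0.05. Cd36, a fatty acid transporter linked to caveolae, averaged 36573 ± 3137 (SD, n = 6) for WT against 38371 ± 4676 (SD, n = 5) for pKO. The insulin receptor Insr, which resides in adipocyte caveolae, had 1298 ± 185 in WT and 1303 ± 280 in pKO mice (SD, n = 6 and n = 5).

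The relatives of EHD2 were less abundant. Ehd1, which recycles endosomes, had 1515 ± 196 in WT against 1965 ± 724 in pKO mice, Ehd3 had 2277 ± 417 and 2061 ± 321, and Ehd4 had 1811 ± 185 and 1598 ± 292 normalized tags (SD, n = 6 and n = 5). Pacsin3, a muscle relative of Pacsin2, averaged 109 ± 11.4 in WT against 141 ± 39.7 in pKO mice. The flotillins, which mark membrane domains other than caveolae, averaged 339 ± 65.3 in WT against 328 ± 108 in pKO mice for Flot1 and 3001 ± 141 and 2806 ± 1063 for Flot2. Dnm2, the dynamin that cuts vesicles from the membrane, had 286 ± 29.2 in WT and 264 ± 76.1 in pKO mice. Src and Fyn, kinases that phosphorylate caveolin-1, were near 100 normalized tags or fewer in both genotypes, from 74.8 to 110 for Src and from 44.0 to 82.9 for Fyn. Nos3 and Plvap, which belong to endothelial caveolae, had 297 ± 60.0 in WT against 264 ± 98.8 in pKO mice and 154 ± 41.9 and 128 ± 72.8. The adjusted p-values of all these genes were at least 0.575 in limma.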

How the data were processed

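SAGE libraries of eWAT from 11 mice, 1 library per mouse, were sequenced on the SOLiD system. The authors mapped tags with a modified version of the vendor's SAGE software and counted them per gene; the submitters' notes name build mm10 and edgeR 3.2.3. The annotation and the gene filter are not given in the sources used here. The deposited values are a normalized signal, in which tag counts were scaled by the size factor of each library. Every value in every library (100% of them, within 0.001 of a tag) was a whole multiple of 1 step, and whole tags were recovered from it. No 2 libraries agreed within sampling noise (lowest chi-square over degrees of freedom 17.7), and all 11 mice were counted. No batch is given in the labels.

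log2(value + 1) of all 15453 genes was tested with limma 3.58.1 (R 4.3.3, mean-variance trend, genotype as the only factor) with Benjamini-Hochberg adjustment over all genes and the threshold of 0.1 that the study used. The p-values measure the spread between separate mice. Fold changes are on the log2(value + 1) scale and understate those of rare genes. Exact permutation tests used every split of the mice into 6 and 5 for single values, all 86400 pairings within genotypes for correlations with Cav1 and all 720 for correlations with Mest in WT mice. Python 3.11.15, numpy 2.4.6 and pandas 2.3.3 were used. Alternatives were edgeR 4.0.16, DESeq2 1.42.0 and limma-voom on the recovered tags, other scalings, pseudocounts and variance models, a filter, the replicate number as a block, and leaving out each mouse. The fit was checked on simulated tags. Intervals and floors cover counting error or the spread between these mice only.

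The genes, the lists and the tests were chosen with earlier results of these data known. The genes named are the 8 caveolae genes, the other pathway genes and cell type markers of the lists, Mest, and the 5 genes most like Cav1, of which 1 is not reported here. Same-numbered mice did not deviate together (mean r of their deviations -0.024, against 0.0046 for different numbers). Tags and coordinates come from GENCODE M21 on GRCm38. All 8 symbols were matched in RefSeq, with Ptrf, Sdpr and Prkcdbp found through their synonyms.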

Additional observations from a re-analysis of the deposited data

Results flagged for a closer look

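In 62 groups, the caveolae genes, the other pathway genes, Mest, the 3 ratios and the library totals in each genotype, the highest or lowest mouse was compared with the rest by Dixon's test. The test used values that were not log2-transformed. It marked 4 groups, where chance gives about 3.1. Ehd2 was 45496 normalized tags in pKO replicate 1 against 28631 to 32762 in the other pKO mice. In the same mouse Ehd1, its close relative, was 744 against 2009 to 2513, so one stood high and the other low. Cav2 was 11928 in pKO replicate 2 against 9685 to 10334. Ptrf was 19064 in WT replicate 6 against 25948 to 28804 in the other WT mice. The value of Pacsin2 in pKO replicate 4, 135 against 983 to 1483 in the other pKO mice, did not pass this test on that untransformed scale.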

How the results depend on the processing

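Under every alternative run, 0 of the 8 caveolae genes passed an adjusted p of 0.1 (Cav3 has no value under the filter and no adjusted p in DESeq2), with adjusted p-values of at least 0.39. Cav2, Cav3, Ptrf, Sdpr, Prkcdbp and Ehd2 kept the sign of their log2 fold change in all of them, but single mice moved its size over 1.5 times for Cav2 (0.11 without WT replicate 6), Ptrf (-0.24 without WT replicate 6, -0.026 without pKO replicate 5), Sdpr (0.34 without pKO replicate 1), Prkcdbp (0.184 without WT replicate 3, 0.065 without WT replicate 6) and Ehd2 (0.17 without pKO replicate 1). That of Cav3 also moved over 1.5 times, without pKO replicate 1 and with a pseudocount of 10. Its size is not given, since Cav3 had 0 to 3 tags per library. The log2 fold change of Cav1 ran from -0.11 to 0.35 when single mice were left out and was -0.070 with the replicate block, which drops WT replicate 6 for want of a partner, and that of Pacsin2 ran from -0.82 to 0.045, the last without pKO replicate 4. Left-out mice also turned the sign of the log2 ratio to Cav1 for Cav2 (-0.14 to 0.26) and Sdpr (-0.18 to 0.35), and for Ptrf it ran from -0.48 without WT replicate 2 to -0.0059 without WT replicate 3. Without the 2 mice farthest from the median, r was 0.081 for Prkcdbp with Cav1 and -0.88 for Cav1 with Mest. Over all genes limma called 5, and this became 9 with the filter on a mean of at least 50, 11 without the mean-variance trend, 138 with DESeq2, 1 with the replicate block, and 3 to 106 when single mice were left out, 106 without pKO replicate 2 and 14 without WT replicate 5. Total-count scaling moved the split at an unadjusted p of 0.05 from 827 lower and 649 higher in pKO mice to 1015 and 463. Median-of-ratios factors equalled the deposited ones. The cause of these changes was not tested. Among the caveolae and other pathway genes, depth limits only Cav3, Murc and Pacsin1. Of the cell type markers, Ckm, Actc1, Myh1, Myh2, Cd3g, Ms4a1, Adam7 and Rnase10 were at 0 in some library.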

Other observations

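Spread between mice was not the same in both genotypes for some genes around the coat. Flna, filamin A, which ties caveolin-1 to actin stress fibres, had 1798 to 2340 normalized tags in WT mice, whereas the pKO mice had 3874, 3597, 638, 2244 and 530. Flot2 had 2846 to 3262 in WT mice and 1228 to 3956 in pKO mice, with the lowest value in replicate 5, the mouse that was also lowest for Flna and Ptrf. The difference in spread was not tested. Of 12 endothelial markers, 9 had a log2 fold change above 0, with a median of 0.13, beside 49.6% of all genes above 0. Among 12 adipocyte markers it was also 9. Kdr alone had an unadjusted limma p at or below 0.05, with a log2 fold change of 0.44. Pecam1, Tek and Emcn went the other way, at -0.39, -0.23 and -0.20, with an unadjusted limma p of 0.051 for Pecam1.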
